A study of Danio rerio with 6 samples.

Results

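*ucp1* encodes an uncoupling protein, a carrier of the mitochondrial inner membrane. The gene was followed here in the guts of wild-type zebrafish larvae as 1 transcript, NM_199523, out of the 16134 transcripts in the count table. It was chosen by its level, its rank and its change in these same libraries, so its own values are given as a description and without a test. At 5 days post fertilization (dpf), WT larvae were injected in the gut and swim bladder with rzIl26, the recombinant zebrafish form of the cytokine IL-26, or with BSA (bovine serum albumin) as the control. Dissection followed 1 h after injection, each library held the pooled guts of 10 to 15 larvae, and each group had 3 such biological replicates. Libraries are named below by their replicate number within the group. The comparison asked which transcripts change soon after IL-26 is supplied.

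In the brown fat of mammals, UCP1 lets protons flow back across the inner membrane without making ATP, so that the energy of respiration is released as heat. Long-chain fatty acids switch this activity on and purine nucleotides block it. Fish do not hold a constant body temperature and have no brown fat, yet they carry an orthologue of the gene, and its role in their tissues is less settled. Its relatives *ucp2* and *ucp3* belong to the same family of mitochondrial carriers, whose other members move nucleotides, phosphate, metabolites and cofactors across the inner membrane.

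*ucp1* was among the most abundant transcripts of the control gut. The 3 BSA libraries held 226628, 160077 and 178715 *ucp1* counts, and the 3 rzIl26 libraries 109093, 127025 and 111485. As a share of all counts this was 1.09%, 0.997% and 0.904% after BSA. The rzIl26 libraries had 0.720%, 0.572% and 0.638%. In the first BSA library 1 count in 92.2 came from this transcript, and in the second rzIl26 library 1 in 174.9. The Wilson 95% intervals of these shares were narrow, from 1.08% to 1.09% in the first BSA library and from 0.569% to 0.575% in the second rzIl26 library, and those of different libraries did not touch. They cover counting error only, so the spread between pools of guts sets the precision.

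Counts per 1000000 counts (CPM) were computed with library sizes scaled by TMM, a method that aligns the bulk of the transcripts between libraries. On this scale *ucp1* stood at 11801, 10632 and 9228 CPM after BSA. After rzIl26 it stood at 6733, 5451 and 6064 CPM. All 3 rzIl26 libraries were below all 3 BSA libraries, and the lowest BSA library exceeded the highest rzIl26 library by 2496 CPM. Such a lack of overlap was common, since 39.6% of the 10576 transcripts tested showed it in either direction, and nothing is read from it here. The mean level was 10554 ± 1288 CPM in the control group and 6083 ± 641 CPM in the rzIl26 group (SD, n = 3 each), which is 42.4% lower. The fitted log2 fold change, rzIl26 against BSA, was -0.79 with a standard error (SE) of 0.11.

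**Figure D1:**
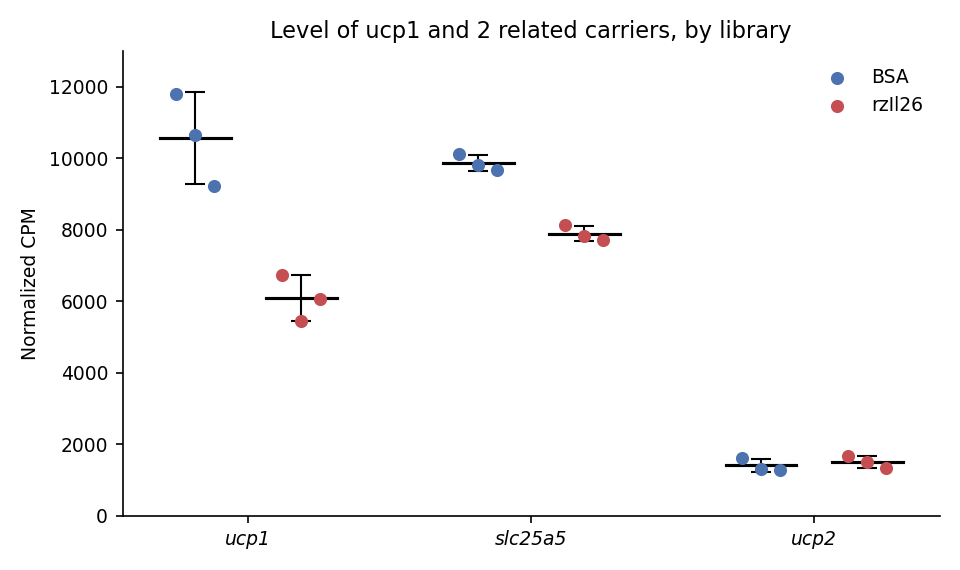
Level of *ucp1* and of the carriers *slc25a5* and *ucp2* in normalized CPM for each library (points), with the group mean (line) and SD (bars) of 3 libraries per group. The rzIl26 libraries of *ucp1* lie between 5451 and 6733 CPM, below the BSA libraries at 9228 to 11801 CPM, and those of *ucp2* overlap; heights of different genes are not comparable, since CPM is not corrected for transcript length.

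The libraries of a group differed among themselves by less than those of different groups. This follows largely from the choice of *ucp1* for its change, so it is a description only. Within a group, any 2 libraries were 0.15 to 0.35 apart on the log2 scale. Across groups, the 9 possible pairs gave log2 ratios between -0.45, for the first rzIl26 library over the third BSA library, and -1.11, for the second rzIl26 library over the first BSA library. The coefficient of variation was 12.2% after BSA and 10.5% after rzIl26. Leaving out any 1 library kept the log2 fold change between -0.88, without the third BSA library, and -0.71, without the first.

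Part of the size of the difference depended on the scaling. With library totals alone, *ucp1* averaged 9955 ± 905 CPM in the control group and 6433 ± 742 CPM in the rzIl26 group (SD, n = 3 each), a level 35.4% lower and a log2 fold change of -0.63. This scaling raised the median log2 fold change of all tested transcripts by 0.16, from 0.01 to 0.17. Because a scaling shifts all transcripts of a library alike, the distance of *ucp1* from that median was about the same by construction, at -0.81 with TMM and -0.80 with library totals.

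The place of *ucp1* among the transcripts differed between the groups. By counts it was the 11th, 11th and 14th most abundant row of the BSA libraries and the 15th, 20th and 19th of the rzIl26 libraries. Over all 6 libraries its mean of 8318 CPM ranked 14. These ranks are per transcript and not per length, because no transcript lengths were used. The difference of -4471 CPM was the 3rd largest loss in the table, after -8762 CPM for the acidic chitinase *chia.2* and -6347 CPM for the lipoprotein gene *apobb.1*, whose groups overlapped and which was not called (edgeR adjusted p = 0.13). The loss of *ucp1* made up 2.67% of the summed loss over the 6374 rows with a lower mean. As a fold change it was less extreme, since 2.44% of the tested transcripts had a lower log2 fold change.

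Among abundant transcripts a fold change of this size was rare. This place of *ucp1* follows largely from its choice by level, rank and change, so it is a description only. The 100 rows with the highest mean CPM, *ucp1* among them, had a median log2 fold change of -0.31, and 92 were lower in value after rzIl26. With *ucp1* left out the median was -0.31 as well, and -0.15 with library totals. By edgeR's quasi-likelihood test with a Benjamini-Hochberg adjusted p under 0.05, 66 of the 100 were lower and 1 was higher, against 9.6% lower and 9.27% higher among all tested transcripts. The lower counts include *ucp1* itself. Only *apoa4b.2*, an apolipoprotein A-IV gene of fat-absorbing gut cells, and *wu:fa56d06* had a lower log2 fold change than *ucp1* within this set, at -0.94 (SE 0.09) and -0.89 (SE 0.10). The same 2 transcripts were the only ones below *ucp1* among the 168 rows of at least 1000 CPM. Reads shared with the neighbouring copy *apoa4b.1* could not be traced, so the value of *apoa4b.2* is uncertain.

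**Figure D2:**
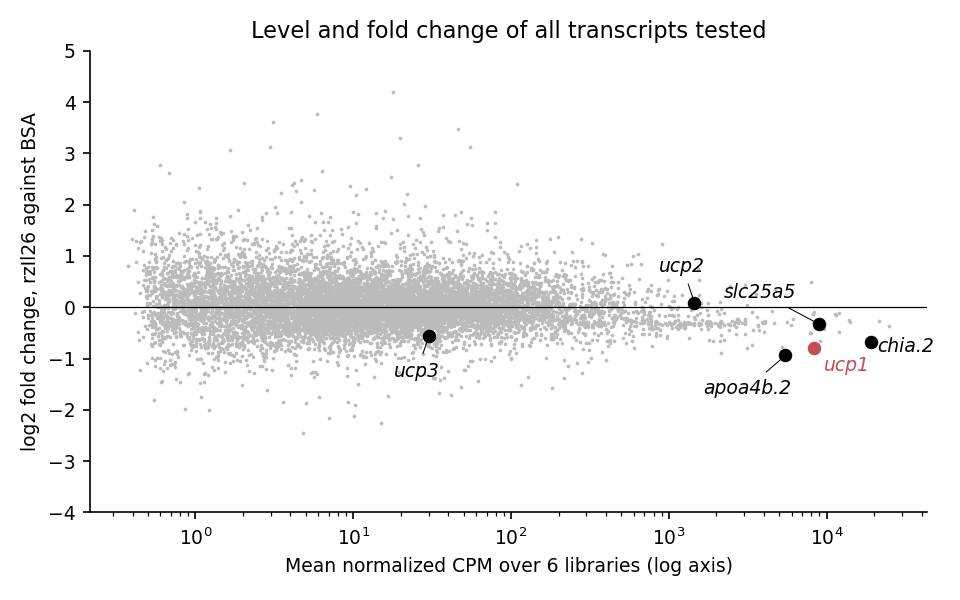
Mean normalized CPM over the 6 libraries (log axis) against the log2 fold change for the 10576 transcripts tested (grey points), with *ucp1* in red and 5 other genes in black. The abundant transcripts lie mostly below 0, and *ucp1* at 8318 CPM and -0.79 is lower than nearly all of them.

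Transcripts of closely matched abundance fell by less or did not pass the test, a contrast that the choice of *ucp1* for its change largely fixed. *slc25a5*, which encodes an ADP/ATP carrier of the same family and ranked just 2 places higher, was at 10116, 9792 and 9672 CPM after BSA. After rzIl26 it was at 8127, 7821 and 7717 CPM. The groups did not overlap, and *slc25a5* fell by 0.32 on the log2 scale (SE 0.06, edgeR adjusted p = 0.012). The chaperone gene *hsp90ab1* fell by the same 0.32 (SE 0.05, edgeR adjusted p = 0.011). With library totals both calls were lost, at an adjusted p of 0.064 for *slc25a5* and 0.065 for *hsp90ab1*. Just below *ucp1* in level were the pancreatic protease genes *prss59.1* and *cpa5*, whose groups overlapped and whose log2 fold changes were -0.10 (SE 0.23) and -0.14 (SE 0.20). For these, edgeR's adjusted p was 0.79 and 0.68, and the sign turned with library totals, to 0.062 and 0.025.

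The ratio of *ucp1* to *slc25a5* within a library is free of the scaling. There were 1.17, 1.09 and 0.954 *ucp1* counts per *slc25a5* count after BSA, and 0.828, 0.697 and 0.786 after rzIl26. The ratio was lower in every rzIl26 library than in any BSA library. This gap follows largely from the choice of *ucp1* for its difference, so it is a description only.

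The uncoupling relatives did not follow *ucp1* in a uniform way. *ucp2* (NM_131176), known in mammals from many tissues and from immune cells, was at 1621, 1307 and 1287 CPM after BSA. After rzIl26 it was at 1673, 1496 and 1320 CPM. The groups overlapped and the log2 fold change was 0.09 (SE 0.12, edgeR adjusted p = 0.64). Per *ucp2* count there were 7.28, 8.14 and 7.17 *ucp1* counts after BSA, and 4.02, 3.64 and 4.59 after rzIl26. That ratio also separated the groups, which again follows largely from the choice of *ucp1*.

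*ucp3* (NM_200353), in mammals a carrier of muscle and brown fat, had between 347 and 858 counts in a library. Its level was 44.7, 31.1 and 32.0 CPM after BSA. After rzIl26 its level was 31.0, 23.8 and 18.9 CPM. The 2 groups did not overlap, although the first rzIl26 library lay just below the second BSA library. The log2 fold change was -0.55 (SE 0.21) and did not pass edgeR's test (adjusted p = 0.11). It passed with DESeq2 (adjusted p = 0.046) and without the first rzIl26 library (adjusted p = 0.042), and the adjusted p ranged up to 0.27 over the alternatives. The *ucp1* counts per *ucp3* count overlapped between the groups, at 264, 341 and 289 after BSA and 217, 229 and 321 after rzIl26.

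The remaining uncoupling-type carriers had few counts. *slc25a27*, the gene of UCP4, had a log2 fold change of -0.29 (SE 0.16, edgeR adjusted p = 0.26) at a mean of 7.06 CPM. *slc25a14*, the gene of UCP5, had 1 count in the first rzIl26 library and 0 in the other 5, too few to test. The RefSeq gene table lists UCP3, ucp4 and UCPx among the older names of the *ucp1* gene, while *ucp2* and *ucp3* have rows of their own. How reads matching several transcripts were counted is not given in the sources used here.

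Across the wider family of mitochondrial carriers, *ucp1* had the lowest log2 fold change but for 1 gene, which follows largely from its choice. Of the other 44 carriers tested, 7 (15.9%) were called lower and 4 (9.09%) higher, against 9.6% and 9.27% of all tested transcripts. Their median log2 fold change was -0.21, beside 0.01 for all tested transcripts, and -0.04 beside 0.17 with library totals. *slc25a32a*, whose mammalian counterpart brings folate and FAD into mitochondria, fell by 0.87 (SE 0.14, edgeR adjusted p = 0.0098), which differs from *ucp1* by less than the SE of either gene. The dicarboxylate carrier *slc25a10b* fell by 0.50 (SE 0.09, edgeR adjusted p = 0.013). The aspartate and glutamate carrier *slc25a12* rose by 0.52 (SE 0.10, edgeR adjusted p = 0.015), a call that was lost without the second rzIl26 library (adjusted p = 0.053).

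The number of carriers called was not stable. The 7 lower calls became 4 without any BSA library or the second rzIl26 library and 3 with library totals. The 4 higher calls became 1 without the first or the second BSA library, 2 without the third BSA library or the third rzIl26 library, and 0 without the second rzIl26 library.

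**Figure D3:**
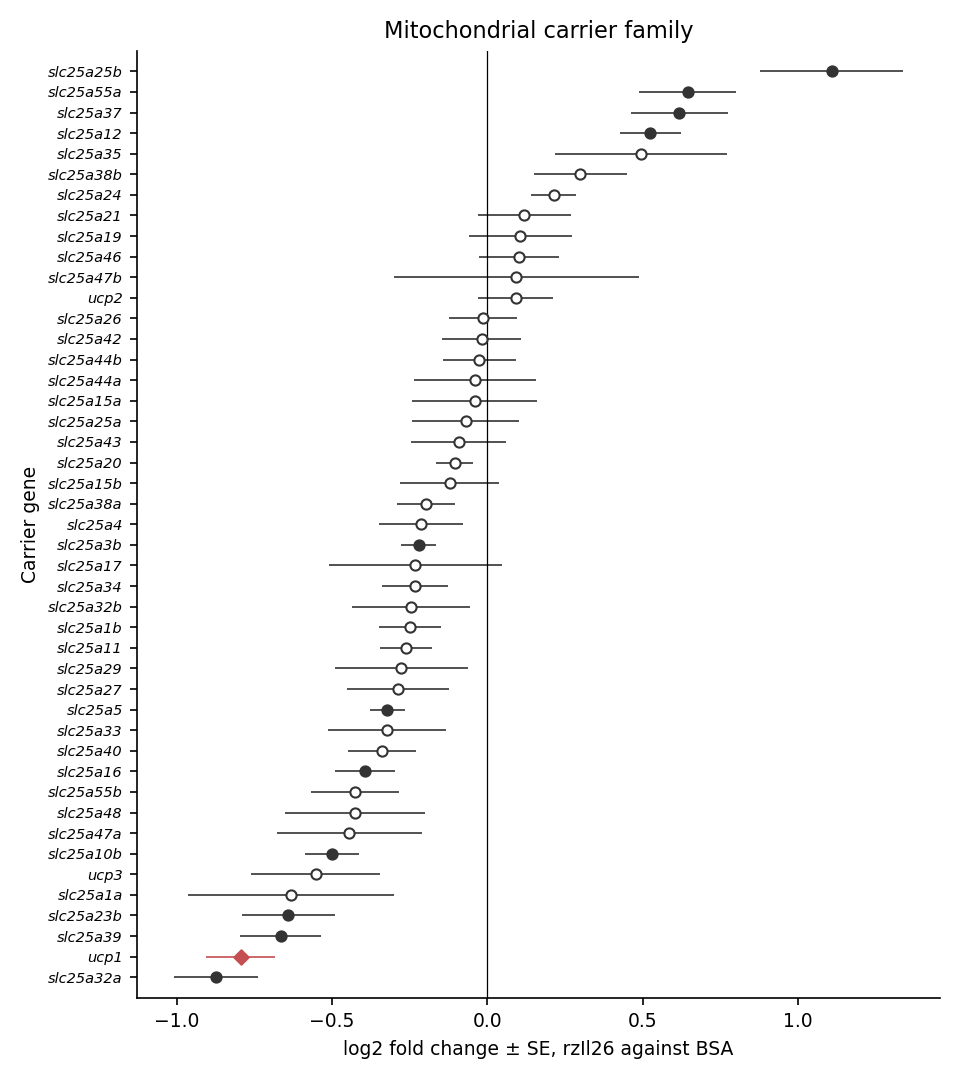
Log2 fold change with SE (bars) of *ucp1* (red diamond, no test) and the 44 other mitochondrial carriers tested, ordered by value. Filled circles mark the 11 carriers with an adjusted p under 0.05, and only *slc25a32a* at -0.87 lies below *ucp1* at -0.79.

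Factors known to govern *Ucp1* transcription or its heat-producing signal in mammals had calls in both directions. Their shares were not far from those of all transcripts. *ppargc1a*, *ppargc1b* and *prdm16* were on the list but had no row under their name. Of 43 genes listed, 32 had a row and 25 could be tested, with a median of 0.07. Among these, 4 (16%) were called lower and 3 (12%) higher, against 9.6% and 9.27% of all tested transcripts. *pparg*, the nuclear receptor that directs fat cell formation and activates *Ucp1* in mammals, was at 68.5, 58.4 and 61.0 CPM after BSA. After rzIl26 it was at 38.0, 36.4 and 39.5 CPM. The groups were well apart, and *pparg* fell by 0.72 (SE 0.09, edgeR adjusted p = 0.0054), a change that passed under every alternative run.

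Other regulators passed by less. Its partner *rxrgb*, a retinoid X receptor gene, fell by 0.64 (SE 0.15, edgeR adjusted p = 0.025), and *pparaa*, a receptor that governs fatty acid use, fell by 0.52 (SE 0.12, edgeR adjusted p = 0.028). The transcription factor *cebpa* rose by 0.64 (SE 0.15, edgeR adjusted p = 0.027). None of these 3 kept its call throughout, since *cebpa* lost it without any 1 of the BSA libraries, *rxrgb* without any BSA library or the second rzIl26 library, and *pparaa* without the first or the second BSA or the second or the third rzIl26 library. For *rxrgb* and *pparaa* it was also lost with library totals, where the list had 1 lower call. The list had 1 lower call without the first BSA or the second rzIl26 library as well, and 2 without either other BSA library. Its 3 higher calls fell to 0 without the first or the third BSA library and to 1 without the second BSA or the second rzIl26 library. The thyroid hormone enzyme gene *dio2*, which supports *Ucp1* in brown fat, had at most 0.432 CPM in a library and was not tested.

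Some genes of the fat cell list were at or near 0. So were some rows of genes that cells use widely, such as the ATP synthase subunit gene *atp5f1c* with 4 counts in all, so a low row here is weak evidence of low expression. *cidec*, a lipid droplet protein of fat cells, had 0 counts in all 6 libraries, and *adipoqb*, an adiponectin gene, had at most 1.03 CPM. The leptin gene *lepa* had at most 1.42 CPM, while *lepb* and the fatty acid binding protein gene *fabp4a* averaged 13.7 and 21.8 CPM. Of the 12 fat cell genes listed, 6 had a row under their name and 4 could be tested. By edgeR 1 (25%) was called lower and 0 higher, against 9.6% and 9.27% of all tested transcripts. The 1 called was *pparg*, which is not restricted to fat cells.

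Fatty acids are the activators and a fuel of uncoupling, and the genes of their supply had calls of either sign, the higher ones at about the share of all transcripts. The 23 tested genes were listed for binding, activating, storing or releasing fatty acids or importing them into mitochondria. Of these, 4 (17.4%) were called lower and 2 (8.7%) higher, against 9.6% and 9.27% of all tested transcripts. Their median of -0.11 turned to 0.06 with library totals. *fabp1b.1*, a fatty acid binding protein gene, was at 3962, 3511 and 4330 CPM after BSA. After rzIl26 it was at 2401, 2384 and 2038 CPM. It fell by 0.79 (SE 0.10, edgeR adjusted p = 0.0057), and its log2 fold change equals that of *ucp1* to 2 decimals.

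The strongest rise on this list was in a lipid droplet gene. *plin2*, which coats droplets in many cell types, was at 7.86, 10.8 and 6.20 CPM after BSA and at 22.3, 27.8 and 31.9 CPM after rzIl26. It rose by 1.73 (SE 0.22, edgeR adjusted p = 0.0057). The acyl-CoA synthetase genes *acsl4b* and *acsl4a*, which activate long-chain fatty acids, moved in opposite directions, with a rise of 1.19 (SE 0.23, edgeR adjusted p = 0.015) and a fall of 0.52 (SE 0.12, edgeR adjusted p = 0.026). The *acsl4b* call was lost without the first or the third BSA library. The *acsl4a* call was lost with library totals and without the first or the third BSA or the second or the third rzIl26 library. The list's 4 lower calls became 1 with library totals and without the first or the third BSA or the second rzIl26 library. Its 2 higher calls became 4 with library totals and without the first rzIl26 library, and 1 without the first or the third BSA library.

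In mitochondrial beta-oxidation, 5 of 18 tested genes (27.8%) were called lower and 0 higher by edgeR, against 9.6% and 9.27% of all tested transcripts. At an unadjusted p under 0.05 and by DESeq2, 0 were higher as well. The median of -0.12 turned to 0.04 with library totals. All 18 genes had a row. No set matched to them in abundance was compared, although abundant transcripts were often lower too. *etfdh*, which passes electrons from fatty acid oxidation to the respiratory chain, fell by 0.54 (SE 0.07, edgeR adjusted p = 0.0059). *acadm*, the medium-chain acyl-CoA dehydrogenase gene, fell by 0.47 (SE 0.06, edgeR adjusted p = 0.0071). The lower calls became 3 without the first or the third BSA library, and 2 without the second BSA library and with library totals.

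Uncoupling is often discussed together with mitochondrial superoxide, and enzymes of superoxide and peroxide defence were listed for that reason. They include enzymes outside mitochondria, so the list is not specific to mitochondria. Of 15 tested, 6 (40%) were called lower and 1 (6.67%) higher, against 9.6% and 9.27% of all tested transcripts. The median was -0.26, and -0.10 with library totals. Abundant transcripts were often lower too, and no set matched to this list in abundance was compared. *gpx4a*, a glutathione peroxidase gene acting on lipid peroxides, fell by 0.99 (SE 0.16, edgeR adjusted p = 0.010). *sod1*, the cytosolic superoxide dismutase gene, fell by 0.36 (SE 0.06, edgeR adjusted p = 0.010), but did not pass with library totals (adjusted p = 0.053). *sod2*, the gene of the mitochondrial form, was lower in value at -0.26 (SE 0.08) and was not called (edgeR adjusted p = 0.051). *nnt*, whose product uses the proton gradient to make NADPH, rose by 0.53 (SE 0.08, edgeR adjusted p = 0.0091). The 6 lower calls became 2 with library totals and without the second BSA or the second rzIl26 library, and 3 without the first BSA library.

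ATP synthase is the path through which protons return when they are not uncoupled. Of 18 tested genes whose symbol begins with *atp5*, 11 (61.1%) were called lower and 0 higher by edgeR, against 9.6% and 9.27% of all tested transcripts. At an unadjusted p under 0.05 and by DESeq2, 0 were higher as well. The median was -0.26, and 17 were lower in value. Abundant transcripts were often lower too, with 66 of the 100 most abundant (*ucp1* included) called lower and a median of -0.31. No set matched to this list in abundance was compared. These changes were shallow beside *ucp1*, which was chosen for its change, since the lowest log2 fold change on the list was -0.40. *atp5mc3b*, a gene of the proton-carrying ring, fell by 0.39 (SE 0.06, edgeR adjusted p = 0.0091). With library totals the median was -0.10 and 1 gene was called lower. Without a library the count was 2 (the first or the third BSA or the third rzIl26 library left out) or 1 (the second of either group), while it was 13 without the first rzIl26 library.

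**Figure D4:**
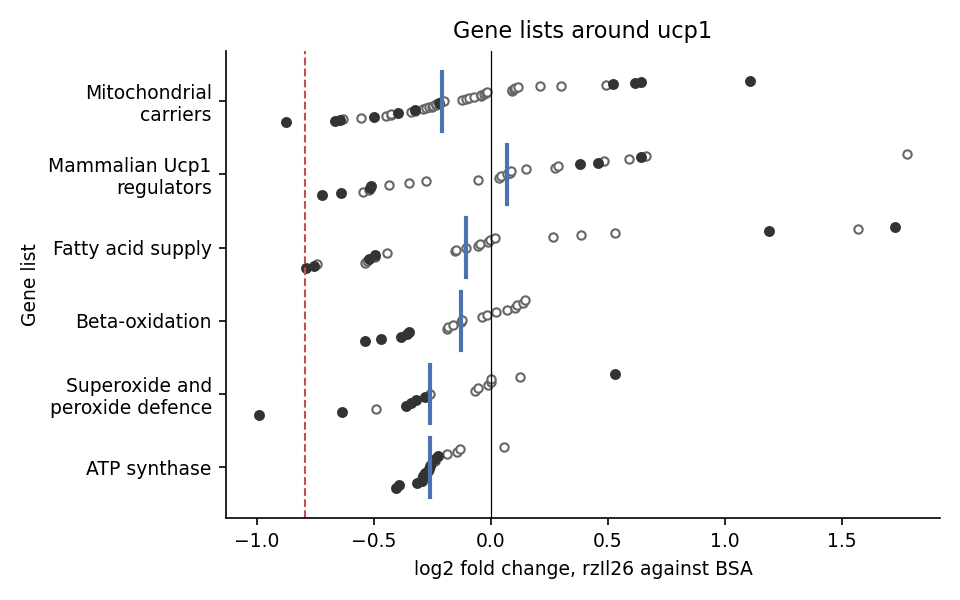
Log2 fold change of the tested members of 6 gene lists, with *ucp1* left out (circles, filled where the adjusted p is under 0.05), the list median (blue bar) and the value of *ucp1* (red dashed line, -0.79). The medians run from -0.26 for the ATP synthase and superoxide lists to 0.07 for the regulators. All lie above *ucp1*, which was chosen for its change. Single members such as *gpx4a* at -0.99 and *slc25a32a* at -0.87 lie below it.

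Some transcripts shared the profile of *ucp1* over the 6 libraries. Likeness was measured as the root mean square difference between profiles of log2 CPM, each centred on its own mean, over 8485 rows with a mean of at least 50 counts. The median row differed from *ucp1* by 0.44 on this scale. The nearest were the helicase gene *rtel1* (0.050), the sphingolipid regulator gene *ormdl1* (0.061), the histone methyltransferase gene *setdb2* (0.062), *ttll12* (0.078), the apolipoprotein E gene *apoea* (0.079) and the cholesterol synthesis gene *dhcr7* (0.080). Their log2 fold changes lay between -0.90 and -0.69, which this choice fixed. Of them *apoea* was nearest to *ucp1* in abundance, at 7778, 6281 and 5609 CPM after BSA and 3893, 3598 and 3973 CPM after rzIl26.

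With the group means removed, another set came nearest. These were *nbas* (0.019), *ppifb* (0.021), *zc3h12ab* (0.022), *nr1i2* (0.022), *got1* (0.023) and *sirt4* (0.024), against 0.18 for the median row. They tracked the order of the libraries within each group, with the highest value in the first library of each, and were picked without regard to the difference between the groups. Of the 6, only *got1* was called, against 9.6% lower and 9.27% higher among all tested transcripts. *got1*, an aspartate aminotransferase gene, fell by 0.61 (SE 0.12, edgeR adjusted p = 0.015), a call lost without the first BSA library (adjusted p = 0.051). *zc3h12ab*, of an RNase family, was not called (edgeR adjusted p = 0.12) except with library totals (log2 fold change 0.53, adjusted p = 0.039). Libraries of a group have no order of their own, so with 3 of them and 8485 rows compared these matches are descriptive.

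*elmod2*, the only directly adjacent gene with a row, did not share the difference of *ucp1*. In the order of the GRCz12tu gene table, *ucp1* lies on chromosome 1 between *tbc1d9*, which has no row, and *elmod2*, the genes that also flank *UCP1* in mammals. *elmod2*, a regulator of small GTPases, averaged 29.7 ± 1.3 CPM in the control group and 32.2 ± 3.9 CPM in the rzIl26 group (SD, n = 3 each) and was not called (log2 fold change 0.12, SE 0.10, edgeR adjusted p = 0.47). The next genes outward, *rnf150a* and *zgc:66455*, were scarce and not called, with log2 fold changes of -0.42 (SE 0.20) and -0.18 (SE 0.29) and edgeR adjusted p of 0.17 and 0.70. Both were lower in value, and at these levels the lack of a call is weak evidence of no change. The files use danRer11, so no coordinates are given.

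Some markers of enterocytes, the absorptive cells of the gut lining, fell along with *ucp1*. Of 10 markers listed 9 were tested, and edgeR called 3 lower (33.3%) and 0 higher, against 9.6% and 9.27% of all tested transcripts. At an unadjusted p under 0.05 there were 4 lower and 1 higher, and DESeq2 called 4 lower and 0 higher. Their summed level was 50820, 48295 and 48607 CPM after BSA, and 35161, 31373 and 36821 CPM after rzIl26. The called members *apoa4b.2*, *chia.2* and *apoa4b.1* fell by 0.94, 0.68 and 0.51 (edgeR adjusted p of 0.0039, 0.0053 and 0.011), and hold most of the sum, whereas *vil1*, the villin gene of the brush border, stayed between 2872 and 3363 CPM in all libraries. *fabp6*, a bile acid binding protein gene, was higher in value without overlap, at 3242 CPM on average after BSA and 3899 CPM after rzIl26, and was not called (edgeR adjusted p = 0.13). *cldn15la*, a gene of gut epithelial cells, had a log2 fold change of -0.07 (SE 0.07, edgeR adjusted p = 0.53). *fabp2*, another listed enterocyte marker, had a row near 0, at 0.17 to 1.66 CPM, which is weak evidence of low expression. In bulk samples fewer cells of a type and less RNA per cell cannot be told apart.

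Per unit of summed enterocyte marker CPM, *ucp1* was at 0.232, 0.220 and 0.190 after BSA and 0.191, 0.174 and 0.165 after rzIl26. The groups then overlapped, because the third BSA library was just below the first rzIl26 library. Scaled in this way, which was chosen after the data were seen, the log2 difference of *ucp1* was -0.27. That sum is held mostly by the 3 markers called lower. Fewer enterocytes and less RNA of these markers per cell cannot be told apart in it. Scaled by the 100 most abundant rows without *ucp1*, it was -0.49, and *ucp1* amounted to 2.29%, 2.17% and 1.98% of their sum after BSA and to between 1.37% and 1.73% after rzIl26. There the groups remained apart. The part of the enterocyte markers in the difference was not tested.

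**Figure D5:**
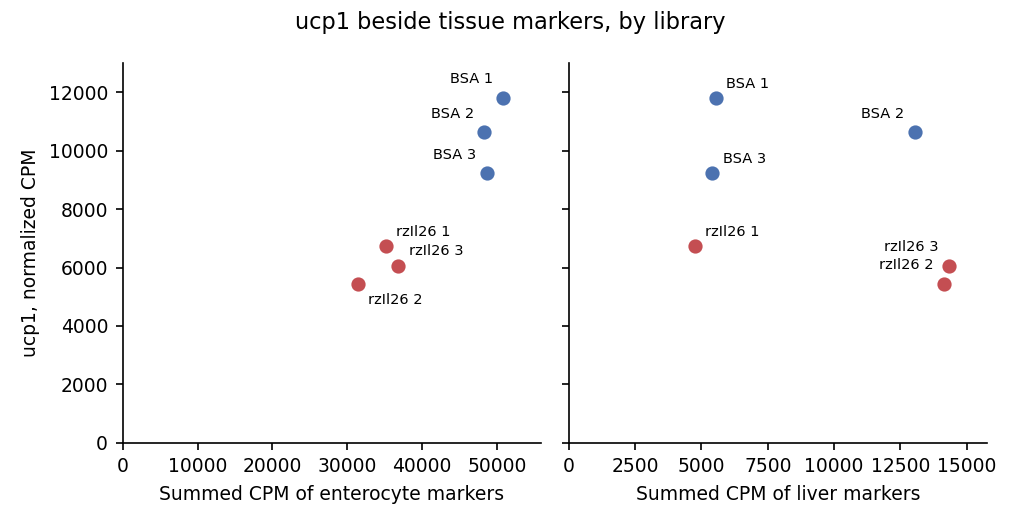
Normalized CPM of *ucp1* against the summed CPM of enterocyte markers (left) and liver markers (right) for each of the 6 libraries (blue BSA, red rzIl26). The rzIl26 libraries are lower in both *ucp1* and enterocyte markers, while the liver sum is high in BSA 2, rzIl26 2 and rzIl26 3, at 13033 to 14343 CPM, and at most 5536 CPM in the others.

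Liver RNA varied between pools and was uneven across the groups. The 14 liver markers summed to 5536, 13033 and 5404 CPM after BSA and to 4746, 14125 and 14343 CPM after rzIl26, with 12 higher in value and none at 0. By edgeR 0 were called, against 9.6% lower and 9.27% higher among all tested transcripts. At an unadjusted p under 0.05 there were 0, and DESeq2 and limma-voom called 0. The 3 libraries low in liver markers, 2 BSA and 1 rzIl26, gave a log2 difference of -0.63 for *ucp1*, and the 3 high ones, 1 BSA and 2 rzIl26, gave -0.89. Each split has an arm of 1 library, so these values have no replicate check. With the liver level as a covariate the value was -0.76. These settings were chosen after the data were seen, and the part of liver RNA in the difference was not tested.

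The other marker lists gave 0 calls by edgeR, against 9.6% lower and 9.27% higher among all tested transcripts. DESeq2 called 1 muscle and 1 leukocyte marker higher. At an unadjusted p under 0.05, 2 muscle markers and 1 leukocyte marker were higher and no other marker of these lists passed. Exocrine pancreas markers summed to 40356 to 55250 CPM after BSA and 28623 to 50458 CPM after rzIl26. Skeletal muscle markers summed to 430 to 672 CPM and 547 to 1059 CPM, neuron markers to 126 to 133 CPM and 113 to 205 CPM, and blood markers to 135 to 195 CPM and 99.2 to 369 CPM. In value, all tested markers of muscle (6), neurons (7) and blood (5) were higher after rzIl26, with medians of 0.44, 0.20 and 0.43. Of the exocrine pancreas markers 7 were lower and 1 higher, and of the leukocyte markers 2 were lower and 1 higher. Leukocyte markers had low rows, which summed to 31.8 to 39.0 CPM after BSA and 33.6 to 36.6 CPM after rzIl26. The macrophage marker *mpeg1.1* and *nkl.2* were at 0 in all libraries, which is again weak evidence of low expression. The part of these tissues in the difference of *ucp1* was not tested.

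The libraries held 15156164 to 22219894 counts, and TMM factors were 0.920 to 0.980 after BSA and 1.05 to 1.07 after rzIl26. The 100 most abundant rows of each library took a mean of 47.3% of counts after BSA and 42.7% after rzIl26.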

How the data were processed

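Per the labels, stranded mRNA libraries were made from pooled larval guts, sequenced as paired-end reads, checked with FastQC and aligned to danRer11. The authors deposited raw whole-number counts, with a row for each RefSeq transcript and a column for each library. The aligner, counting tool and annotation release are not given in the sources used here. The table held 16134 rows, 2701 of them with 0 counts throughout, and 15776 matched a symbol in the NCBI RefSeq gene table of GRCz12tu, used for names and gene order only.

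The analysis used edgeR 4.0.16 in R 4.3.3 (TMM, filterByExpr with a minimum count of 10, quasi-likelihood test with group as sole term). Benjamini-Hochberg adjustment ran over the 10576 rows kept, with a threshold of 0.05. Such p-values weigh the difference between the groups against the spread between pools of guts, which is estimated with information shared over all rows. Each SE was obtained from the F statistic of the test and the size of its fold change. CPM is relative to the TMM-scaled library size. The scripts were tested on simulated counts.

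The gene and the lists were chosen with earlier results of these data known. Named genes were the uncoupling family, up to 4 called genes of each list (smallest adjusted p first), the 6 rows nearest in profile by each of 2 measures, the 2 rows above and below in level and the 2 genes on each side. Others, such as *apobb.1*, *dio2*, *fabp6*, *sod2*, *atp5f1c* and *vil1*, were named after their values were seen. Where a gene had several rows, its row with the most counts was used.

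The alternatives were upper-quartile and RLE factors, library totals, no filter, a filter of 10 counts in every library, limma-voom (limma 3.58.1), DESeq2 1.42.0, the replicate number as a block, and leaving out each library. The 5 settings based on markers or abundant rows were added after the data were seen. No sequences were used.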

Additional observations from a re-analysis of the deposited data

How the results depend on the processing

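The log2 fold change of *ucp1* stayed between -0.88 and -0.63 over the 14 alternatives chosen at the outset, including -0.88 to -0.71 with each library left out. It moved by more than the replicate SD of 0.17 only when scaled by enterocyte markers (-0.27) or by the 100 most abundant rows (-0.49). The enterocyte sum was held mostly by the 3 markers called lower. The shifts with library totals and with the libraries low in liver markers (both -0.63) fell just short of that SD. It is the spread of single libraries, and these shifts exceeded the SE of the difference, 0.11. Library totals gave 1783 higher and 400 lower calls in place of 980 and 1015, 3 lower calls among carriers in place of 7, and 24 calls over the pathway lists (marker lists not included) in place of 47. With 1 library left out there were 339 to 874 higher and 398 to 940 lower calls, 0 to 4 higher and 4 to 10 lower among carriers, and 17 to 52 over the pathway lists. The counts fell by more than 1.5 times without the first (339 and 398), the second (481 and 497) or the third BSA library (453 and 525) and without the second rzIl26 library (404 and 420). These leave-one-out fits had fewer samples, and the cause was otherwise not tested.

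*ucp3* passed the threshold with DESeq2 (-0.55) and with the replicate block (-0.56, adjusted p = 0.025), and ranged from -0.75 to -0.37 with 1 library left out. Signs turned for genes near 0 that were not called: *ppifb* with upper-quartile factors (-0.014) and over a range of -0.072 to 0.11 with 1 library left out, *prss59.1* (0.062 with library totals, -0.29 to 0.12), *cpa5* (0.025, -0.28 to 0.055), *nr1i2* (0.034) and *sirt4* (0.070) with library totals, and *zgc:66455* (-0.33 to 0.0082).

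Samples with the same replicate number correlated at 0.289, 0.098 and 0.005 in their deviations, and the second BSA library correlated best with the third rzIl26 library, so the numbers were not taken as pairs. The replicate block left 883 higher and 844 lower calls, and 3 of the 11 lower calls of the ATP synthase list.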
